A study of Mus musculus with 12 samples.

Results

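Genes of the skeletal muscle contractile apparatus were followed in whole-tumor RNA: 39 genes of 55450 annotated entries in the count table. The 39 genes were chosen by name for their known roles, but with earlier results of these data known. Counts of members set against all genes below are therefore descriptive and no independent support. They cover the thick filament (8 genes), the thin filament (7), the Z disc and cytoskeleton (8), calcium handling (6), metabolism (7) and 3 regulators of myogenesis or protein turnover. The measurements came from 12 RNA-sequencing libraries in 6 groups of 2. All mice were C57BL/6 males of 8 to 10 weeks carrying subcutaneous TRAMP-C2-Ras (TC2R) tumors, a mouse prostate adenocarcinoma line to which an activated H-ras gene had been added by lentivirus. The pMCS group received an empty plasmid, IL-27 an untargeted interleukin-27 plasmid that ends in a non-specific peptide, and 27pepL an interleukin-27 plasmid that ends in a peptide binding the interleukin-6 receptor α. Plasmids were delivered into skeletal muscle by sonoporation on day 4, whereas recombinant IL-18 was injected into the tumor on day 10. IL-18 was given alone or after a plasmid, in the 27→18 and 27pepL→18 groups. By the study's methods, IL-18 was added to pMCS or to an interleukin-27 plasmid, so that IL-18 alone went with the empty plasmid. Tumors were taken on day 26, and each library held RNA of 4 to 6 pooled tumors. Whether muscle beside a tumor was taken with it is not stated in the methods. Nothing states that the libraries of a group came from separate animals, so the p-values below speak of differences among libraries, which could be technical, and not among animals.

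Skeletal muscle fibers are long multinucleated cells in which myosin thick filaments pull on actin thin filaments when calcium, released from the sarcoplasmic reticulum, binds troponin. Adult mouse fibers are sorted by the myosin heavy chain they carry: slow type I (Myh7), and fast IIa (Myh2), IIx (Myh1) and IIb (Myh4). Fast and slow fibers also use different troponins, light chains and calcium-handling proteins, while Myh3 and Myh8 mark embryonic, neonatal and regenerating fibers. As the plasmids were placed in muscle and the tumors lay under the skin, the question asked of these genes was which libraries held muscle transcripts and of which fiber type.

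Many muscle promoters carry E-boxes, short motifs that factors of the MyoD family bind. RefSeq windows (GRCm38.p6) from 250 bases before to 50 after the start were at hand for 28 of the 39 genes. The E-box core CAGCTG, which reads the same on both strands, was in 15 of these 28 windows (53.6%), against 16.1% of all 27025 windows of the same length. The more general CANNTG, which includes CAGCTG, was in 82.1% against 72.2%. The MEF2 motif was in 5 of 28 (17.9%) against 1.89% and the CArG box in 2 of 28 (7.14%) against 1.57%, each looked for on both strands. TATAAA, also on both strands, was in 28.6% against 14.2%. These counts describe letters in a window and no binding was measured. The windows of 5 genes on which the results turn are shown because each holds 1 CAGCTG, set in capitals. They are skeletal α-actin (Acta1, chr8:123894726-123895025, minus strand), muscle creatine kinase (Ckm, chr7:19410844-19411143, plus strand), the fast regulatory light chain (Mylpf, chr7:127211358-127211657, plus strand), the IIb heavy chain (Myh4, chr11:67237562-67237861, plus strand) and the fast calcium pump (Atp2a1, chr7:126463024-126463323, minus strand).
Acta1: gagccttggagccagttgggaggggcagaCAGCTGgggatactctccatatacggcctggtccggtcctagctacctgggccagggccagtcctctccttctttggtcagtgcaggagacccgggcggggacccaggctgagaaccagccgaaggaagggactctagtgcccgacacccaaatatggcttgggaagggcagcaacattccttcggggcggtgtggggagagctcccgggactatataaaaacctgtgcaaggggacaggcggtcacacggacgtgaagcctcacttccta
Ckm: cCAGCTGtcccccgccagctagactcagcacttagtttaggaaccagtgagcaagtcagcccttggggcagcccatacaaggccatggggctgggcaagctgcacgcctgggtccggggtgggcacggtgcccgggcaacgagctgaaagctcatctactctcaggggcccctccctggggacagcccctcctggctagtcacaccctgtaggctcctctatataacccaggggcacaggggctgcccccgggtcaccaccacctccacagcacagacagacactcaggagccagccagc
Mylpf: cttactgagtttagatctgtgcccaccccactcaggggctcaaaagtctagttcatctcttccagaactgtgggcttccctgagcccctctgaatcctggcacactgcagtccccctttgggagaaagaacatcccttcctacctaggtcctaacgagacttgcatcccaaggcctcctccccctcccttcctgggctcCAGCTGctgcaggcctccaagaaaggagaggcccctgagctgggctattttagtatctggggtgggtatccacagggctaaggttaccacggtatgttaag
Myh4: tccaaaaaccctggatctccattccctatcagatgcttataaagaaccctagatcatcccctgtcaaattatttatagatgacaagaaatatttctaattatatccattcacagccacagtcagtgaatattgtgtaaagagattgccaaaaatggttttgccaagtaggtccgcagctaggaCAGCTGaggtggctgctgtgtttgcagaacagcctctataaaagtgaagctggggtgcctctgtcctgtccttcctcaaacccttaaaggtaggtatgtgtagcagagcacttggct
Atp2a1: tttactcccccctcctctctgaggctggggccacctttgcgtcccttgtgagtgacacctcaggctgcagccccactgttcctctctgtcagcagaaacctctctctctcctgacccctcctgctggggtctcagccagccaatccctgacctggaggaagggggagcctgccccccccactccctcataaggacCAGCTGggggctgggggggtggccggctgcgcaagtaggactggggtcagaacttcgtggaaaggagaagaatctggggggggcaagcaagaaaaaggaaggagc

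Library totals ranged from 49844915 to 76620862 counts. Values are CPM (counts scaled to a common library size, after TMM correction for differences in library makeup) unless a sentence says otherwise, and comparisons between genes use CPM per kilobase of merged exons. Genes looked at as markers of the tumor line were read in whole-tumor RNA, to which other cells can add. Hras lay between 36.7 and 68.8 CPM, the epithelial keratin Krt8 between 10.6 and 106 CPM and Vim between 1735 and 3249 CPM. Krt18 and Epcam did not pass 3.10 and 3.53 CPM, and the prostate secretion Pbsn was at 0 in all 12. Of the 39 genes, 32 passed the filter on low counts and were tested among 20417. Myh2, Actn2, Myot, Myod1, Myog, Sln and Trim63 did not pass and are given as counts. Of the 32, 8 (Cacna1s, Mb, Mybpc2, Myh4, Pvalb, Smpx, Tnnc2 and Xirp2) passed only with the 27→18 libraries included, where they were high, so the filter itself favored a difference for them. The other 24 passed without those libraries, as did 20052 genes in all.

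Muscle transcripts stood out in both 27→18 libraries, while in no other group were they high in both. With the glycolytic enzyme gene Eno3 left out, the members summed to 296 CPM, before scaling, in 27→18 replicate 1 and 93.4 CPM in replicate 2. The other 10 libraries lay between 11.4 and 54.1. For 13 of the 32 tested members, both 27→18 libraries were above all other 10 libraries, a pattern that 0.622% of all tested genes showed. Of these 13, Tnnc2, Myh4, Mybpc2 and Xirp2 passed the low-count filter only with the 27→18 libraries, which favored the pattern for them. Of all 39 members, including those too low to test, 15 showed it. No share over all genes, tested or not, was computed for that count. In bulk RNA, fewer cells of a type and less RNA per cell cannot be told apart, and the same holds for more.

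**Figure D1:**
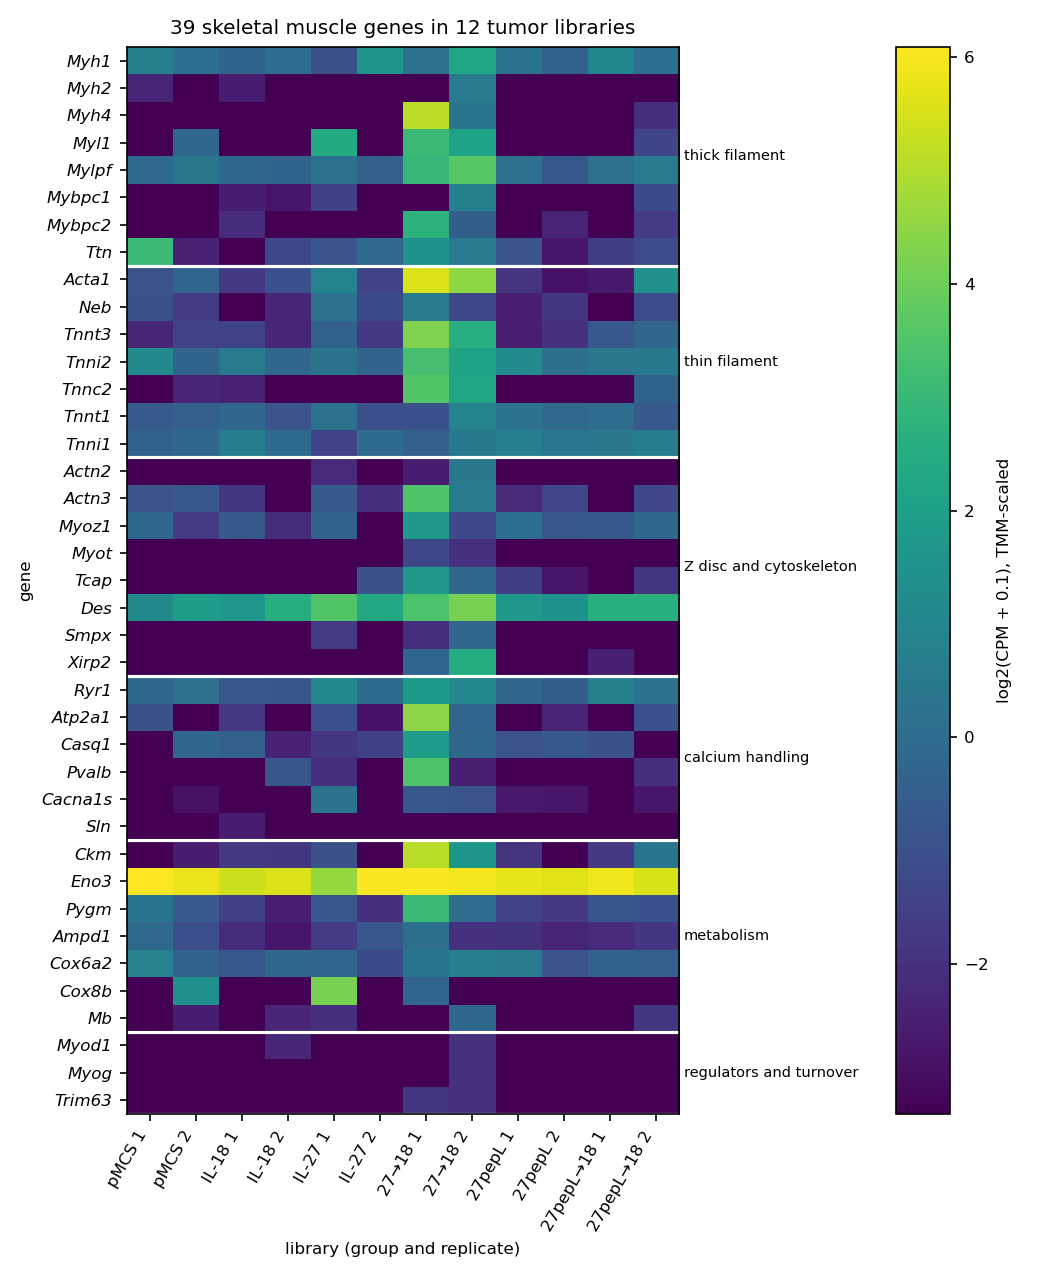
Level of each of the 39 genes (rows, grouped by role) in each of the 12 libraries (columns), as log2(CPM + 0.1) in color. The columns of 27→18 replicates 1 and 2 are bright for Acta1, Tnnt3, Mylpf and Ckm, Myh4 is bright in replicate 1 alone, and Eno3 is bright in all 12 libraries.

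Against the mean of the other 5 groups, Tnnt3 and Mylpf were higher in 27→18, and no other gene of any kind passed an adjusted p of 0.05 (edgeR quasi-likelihood test with Benjamini-Hochberg adjustment; 2 of 20417 genes, 0.0098%, called). Tnnt3 (ENSMUSG00000061723, chr7:142498836-142516009, plus strand of GRCm38 in GENCODE M21) encodes fast troponin T, the subunit that ties troponin to tropomyosin. Its level was 19.2 and 6.04 CPM in 27→18 replicates 1 and 2. In the other libraries it was 0.0946 and 0.277 for pMCS, 0.276 and 0.0998 for IL-18, 0.660 and 0.204 in IL-27, 0.0723 and 0.157 in 27pepL, and 0.507 and 0.765 in 27pepL→18. The 27→18 libraries did not overlap with any other, and the log2 fold change was 5.61 (SE 0.53, adjusted p = 0.0237 by edgeR). Mylpf (ENSMUSG00000030672, chr7:127208890-127214298, plus strand), the fast regulatory light chain, measured 7.67 and 12.5 CPM in 27→18. The pMCS libraries had 0.827 and 1.24 CPM and the IL-18 libraries 0.810 and 0.711, followed by 1.03 and 0.631 in IL-27, 1.07 and 0.506 in 27pepL, and 1.03 and 1.34 in 27pepL→18. Again no library outside 27→18 came near, with a log2 fold change of 3.47 (SE 0.34, adjusted p = 0.0237 by edgeR). These 2 calls depended on single libraries and on the tool. The fit called 0 members when a library of pMCS, IL-18, 27pepL or 27pepL→18 or 27→18 replicate 1 was left out and 1 (Tnnt3) without 27→18 replicate 2, while DESeq2 called 8 members among 89 genes and edgeR without the low-count filter called 22 among 172, all 8 and all 22 higher.

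At an unadjusted p under 0.05 with a log2 fold change beyond 1, 21 of the 32 tested members were higher in 27→18 than in the mean of the other groups, where 1.07% of all tested genes were, and 0 were lower (background 0.402%). Of the 24 members that passed the filter without 27→18, 14 were higher, against 0.833% of the 20052 genes that did so. The count of higher members moved when 1 library was left out. Those fits ran the low-count filter anew, so their counts are not taken among the same 32. The median log2 fold change of the 32 was 3.74, with the 8 included, and that of all tested genes 0.02. By role, these 21 were 5 of 7 tested thick filament genes, 4 of 7 thin filament genes, 5 of 6 Z disc and cytoskeletal genes, 5 of 5 calcium handling genes and 2 of 7 metabolic genes.

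**Figure D2:**
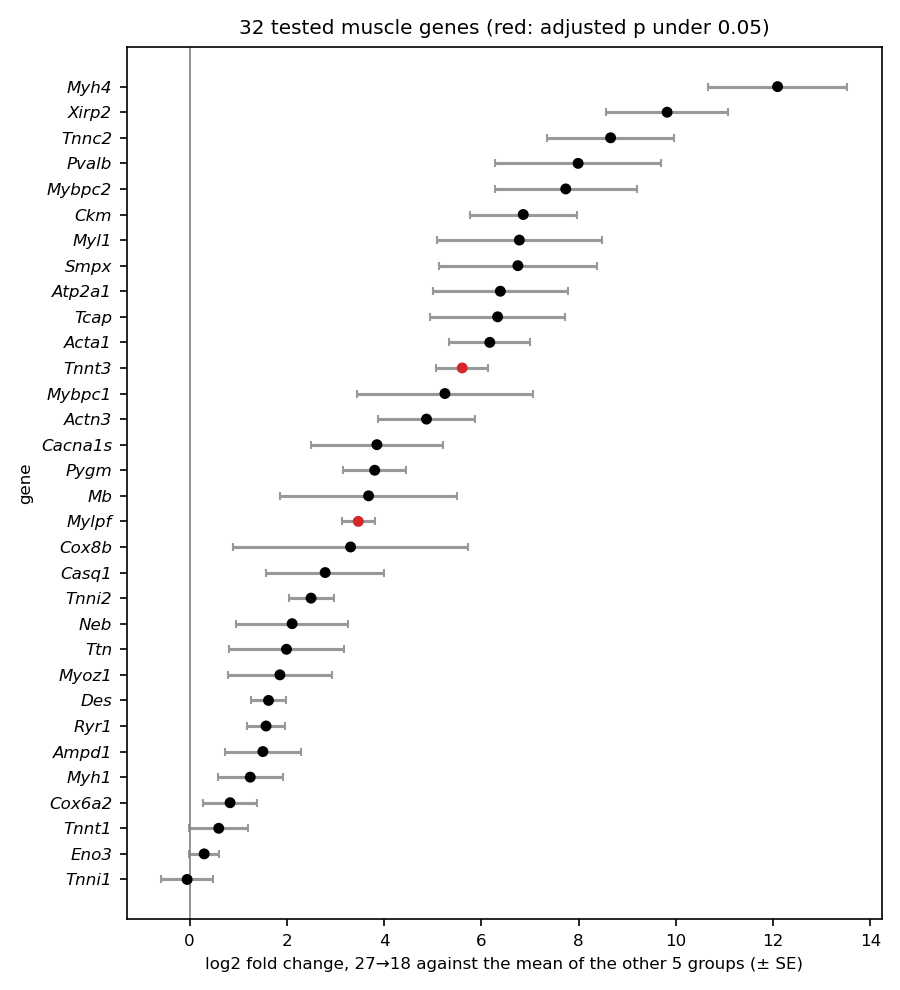
Log2 fold change of each of the 32 tested members in 27→18 against the mean of the other 5 groups, with bars of 1 SE and red points for an adjusted p under 0.05. The SE was derived from the fold change and the F statistic of the edgeR test. Tnnt3 (5.61) and Mylpf (3.47) are the red points, and the large values of Myh4 and Xirp2, genes at or near 0 elsewhere, depend on the prior count of the fit and are no measure of fold.

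Acta1, the actin of adult skeletal muscle, was the most abundant member per kilobase in both 27→18 libraries once Eno3 was left out. It measured 47.5 and 22.4 CPM in 27→18. The pMCS libraries had 0.425 and 0.743 CPM and the IL-18 libraries 0.194 and 0.424, followed by 1.76 and 0.278 in IL-27, 0.174 and 0.0362 in 27pepL, and 0.0585 and 2.62 in 27pepL→18. The groups did not overlap, but Acta1 did not pass the threshold over all genes (log2 fold change 6.17, SE 0.83, adjusted p = 0.162 by edgeR), which it did with counts divided by 4 and with DESeq2. Tnni2, fast troponin I, the inhibitory subunit, was at 9.82 and 4.16 CPM in 27→18 and between 0.705 and 2.23 CPM in all other libraries. Tnnc2, fast troponin C, the calcium-binding subunit, was at 11.5 and 4.67 CPM in 27→18, at 0.716 CPM in 27pepL→18 replicate 2, and at no more than 0.104 CPM in the other 9. The giant filament ruler Neb did not separate the groups, with 1.33 and 0.327 CPM in 27→18 and 1.03 CPM in IL-27 replicate 1.

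Slow troponins were a different matter. Tnnt1, slow troponin T, was at 0.411 and 1.75 CPM in 27→18 and between 0.390 and 1.09 CPM elsewhere. Tnni1, slow troponin I, was at 0.636 and 1.29 CPM in 27→18 and between 0.267 and 1.58 CPM elsewhere. Neither passed an unadjusted p of 0.05 (0.349 and 0.928, edgeR), and in both cases the 27→18 libraries overlapped with the other tumors.

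Myosin heavy chains told the 2 libraries of 27→18 apart. Myh4 had 2776 counts in replicate 1 and 61 in replicate 2, against 12 in 27pepL→18 replicate 2 and 0 in the other 9 libraries. Myh2 was the reverse, with 0 counts in replicate 1 and 74 in replicate 2, and no more than 4 elsewhere. Myh1 was not particular to 27→18: it had 85 and 240 counts there and between 23 and 159 in every other library, although those libraries held next to no Myh2 or Myh4. The embryonic Myh3 had 0 and 23 counts and the neonatal Myh8 had 9 and 15 counts, in replicates 1 and 2, and slow Myh7 had 0 in both. Apart from Myh7, these heavy chain genes are close copies in one cluster, and reads could be divided among them wrongly.

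As a share of the 6 heavy chains per kilobase, Myh4 made up 96.8% in 27→18 replicate 1 (95% Wilson interval 96.1 to 97.4, or 95.3 to 97.9 on counts divided by 4). In replicate 2 it made up 15.0% (11.9 to 18.8, or 9.41 to 23.2). Myh1 led replicate 2 with 58.5% (53.7 to 63.1, or 48.8 to 67.5), followed by Myh2 with 18.04% (14.6 to 22.04, or 11.8 to 26.6), Myh3 with 5.63% (3.79 to 8.29) and Myh8 with 2.83% (1.61 to 4.91). In replicate 1, Myh1 was 2.93% and Myh2 and Myh7 0%, where 0 of 2870 counts allow up to 0.134% (Wilson). The wider intervals are given because the low counts came in steps of about 4: among protein-coding genes the value 4 occurred 4293 times, but 3 occurred 541 times and 5 occurred 433 times. Both cover counting error only. Since Myh1 was present in all tumors, its share was also computed after the median level of the other 10 libraries was taken off. Myh1 was then 0.215% of replicate 1 and 52.5% of replicate 2, and Myh4 was 99.5% and 17.2%. By the counts as assigned, replicate 1 thus held Myh4 almost alone. Replicate 2 held Myh1, Myh2 and Myh4, with few counts of Myh3 and Myh8. IL-27 replicate 2 had 2.95 CPM of Myh1, against 4.62 CPM in 27→18 replicate 2, so the size of the Myh1 lead depends on the level taken off. Myh3 also had 6 counts in pMCS replicate 2, 8 in IL-18 replicate 1 and 4 in IL-27 replicate 2.

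**Figure D3:**
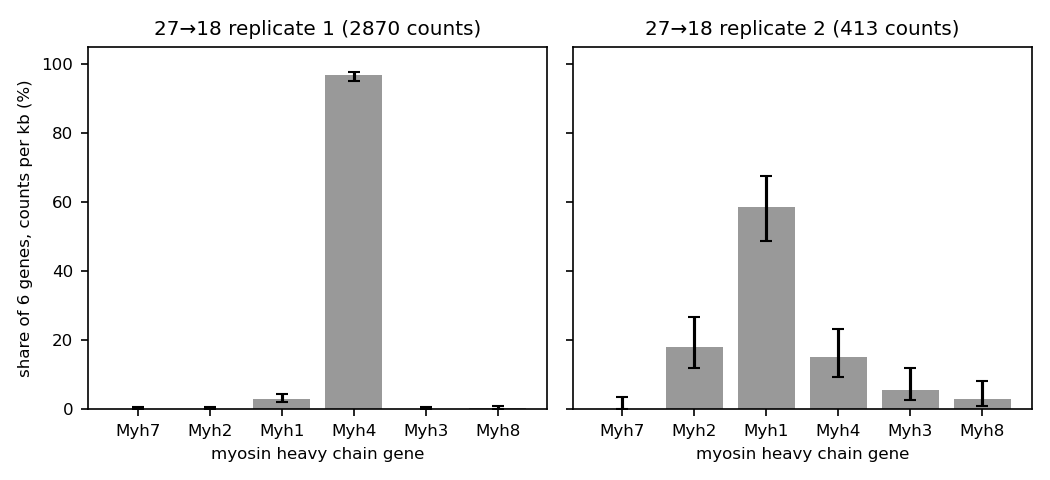
Share of each of 6 myosin heavy chain genes in their summed counts per kilobase, in percent, for 27→18 replicate 1 (2870 counts) and replicate 2 (413 counts), with 95% Wilson intervals on counts divided by 4. Myh4 takes 96.8% of replicate 1, and Myh1 takes 58.5% of replicate 2.

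Slow and fast partner genes were compared in the same way. Slow troponin T was 2.27% of the Tnnt1 and Tnnt3 pair per kilobase in 27→18 replicate 1 (1.64 to 3.13) and 23.9% in replicate 2 (19.97 to 28.3), while 9 of the other 10 libraries lay between 63.3% and 94.2% and 27pepL→18 replicate 2 was at 42.5%. For Tnnc1 and Tnnc2, the slow gene was 11.98% in replicate 1 and 49.8% in replicate 2, 74.2% in 27pepL→18 replicate 2, and at least 94.4% in the other 9. For Tnni1 and Tnni2, it was 4.24% and 17.5%, and between 13.8% and 46.4% elsewhere. In each of these pairs the slow share was lower in replicate 1 than in replicate 2, with intervals that did not overlap. However, slow troponins were present in all tumors, so the shares also move with the amount of muscle RNA. With the median level of the other 10 libraries taken off each gene, the slow share was 0% in replicate 1 for all 3 pairs, and in replicate 2 it was 16.4% for troponin T, 5.05% for troponin I and 36.1% for troponin C. In replicate 2, however, Tnnc1 (4.77 CPM) and Tnni1 (1.29 CPM) lay within the range of the other libraries, up to 4.78 and 1.58 CPM. Tnnt1, at 1.75 CPM, was above them. Tnnc1 is also a cardiac gene. These shares are therefore no measure of slow fiber content. The slow light chains Myl2 and Myl3 were at 8 counts or less in every library, so the pairs with Mylpf and Myl1 held in effect the fast gene alone. The myosin-binding protein pair split the most. Mybpc2, the fast form, had 534 and 32 counts in the 27→18 libraries, and Mybpc1, the slow form, had 0 and 86. The slow share was thus 0% in replicate 1 (up to 0.714%) and 70.9% in replicate 2 (62.2 to 78.3, or 52.9 to 84.1 on counts divided by 4). In 27pepL→18 replicate 2 it was 57.6%, from 27 counts of Mybpc1 and 18 of Mybpc2. Myh7 had 0 counts in both 27→18 libraries, so this share is no measure of slow fiber content either.

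The alkali light chain Myl1 was at 8.43 and 4.29 CPM in 27→18, 5.35 CPM in IL-27 replicate 1, 0.812 CPM in pMCS replicate 2, 0.291 CPM in 27pepL→18 replicate 2 and 0 in the remaining 7. IL-27 replicate 1 therefore fell between the 27→18 libraries for this gene, although its Mylpf was at the level of the other tumors. Ttn, the spring that spans the half-sarcomere, was highest in pMCS replicate 1 at 8.53 CPM, above the 2.68 and 1.37 CPM of 27→18. The other 9 libraries lay between 0 and 0.835 CPM.

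Among Z disc genes, Xirp2, an actin-binding repeat protein of striated muscle, had 60 counts in 27→18 replicate 1 and 292 in replicate 2. It had 4 counts in 27pepL→18 replicate 1 and 0 in the other 9 libraries. Against pMCS, where a floor of 12 counts per library was taken for a count of 0, Xirp2 was at least 2.64-fold higher in replicate 1 and at least 19.8-fold higher in replicate 2. Tcap, the titin cap, had 265 and 41 counts in 27→18 and 0 in both pMCS libraries, at least 11.7-fold and 2.78-fold higher. Actn3, the α-actinin of fast fibers, was at 11.3 and 1.40 CPM in 27→18 and no more than 0.535 CPM elsewhere, and the other muscle α-actinin, Actn2, had 5 and 66 counts. Des, the intermediate filament desmin, was present in all tumors. It was at 10.6 and 17.7 CPM in 27→18 and 11.4 CPM in IL-27 replicate 1, and between 2.18 and 6.18 CPM in the rest. Smpx had 12 and 41 counts, Myot 25 and 8, and Myoz1 256 and 17, the last within the range of the other tumors in replicate 2 (0.327 CPM, with 0 to 0.983 CPM elsewhere).

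Among genes of calcium handling, Atp2a1 and Pvalb differed widely between the 27→18 libraries and the others less so. Atp2a1, the calcium pump of fast fibers, was at 21.7 CPM in replicate 1 and 0.731 CPM in replicate 2, and no more than 0.402 CPM elsewhere. Pvalb, the soluble calcium buffer of the fastest fibers, was at 11.2 and 0.0769 CPM, with 0.474 CPM in IL-18 replicate 2. Replicate 1 exceeded replicate 2 by 29.7-fold for Atp2a1 and by 145-fold for Pvalb, the latter against 4 counts. Casq1, the calcium store protein of fast fibers, was at 3.50 and 0.789 CPM, with 0.760 CPM in pMCS replicate 2. The release channel Ryr1 differed less, at 3.44 and 1.94 CPM, with 1.94 CPM in IL-27 replicate 1 and 0.474 to 1.68 CPM elsewhere. Cacna1s, the voltage sensor, was at 0.486 and 0.442 CPM and was highest in IL-27 replicate 1, at 1.14 CPM. Sln, a regulator of the pump, had 4 counts in 1 library in all.

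Of the metabolic genes, Ckm, which buffers ATP in muscle, was at 33.3 and 3.10 CPM in 27→18 and no more than 1.17 CPM elsewhere. Pygm, the muscle glycogen phosphorylase, was at 8.54 and 0.943 CPM, and pMCS replicate 1 at 1.16 CPM. Mb, the oxygen store of oxidative fibers, had 0 counts in 27→18 replicate 1 and 41 in replicate 2. Eno3, muscle enolase, was at 64.8 and 60.7 CPM and between 24.2 and 68.0 CPM elsewhere, so this gene did not mark muscle in these tumors. Ampd1 and Cox6a2 also overlapped between the groups. Cox8b was highest outside 27→18, at 18.1 CPM in IL-27 replicate 1 and 2.54 CPM in pMCS replicate 2, against 0.748 and 0 CPM in 27→18. The remaining 8 libraries were at 0. The 12 adipocyte genes on a separate list summed to 15130 CPM in IL-27 replicate 1, 1426 in pMCS replicate 2, 463 in 27→18 replicate 1, 90.1 in 27→18 replicate 2 and between 89.3 and 195 in the other 8. The part of adipocyte RNA in Cox8b, Myl1 and Cacna1s in IL-27 replicate 1 was not tested.

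Regulators of myogenesis were at the edge of detection. Myod1 and Myog, the factors that commit and differentiate muscle precursors, each had 8 counts in 27→18 replicate 2 and 0 in replicate 1. Myod1 also had 8 counts in IL-18 replicate 2. Trim63, a ubiquitin ligase of muscle wasting, had 15 and 8 counts in 27→18 and 0 in all other libraries.

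Side by side, 24 of the 39 members were higher in 27→18 replicate 1, 14 in replicate 2 and 1 was at 0 in both, and 5 were at 0 in replicate 1 but detected in replicate 2. Ckm, Myh4, Atp2a1, Pvalb and Mybpc2 were over 10-fold higher in replicate 1. Myh1, Myh2, Mybpc1, Mb, Actn2, Smpx and Xirp2, by contrast, were on the side of replicate 2. With 1 library each there is no test of this difference. Csrp3, a stress-responsive LIM protein of the Z disc from the list of other sarcomere genes, had 167 counts in replicate 2 and 0 in the other 11 libraries, and the caveolin Cav3 had 23 counts in replicate 2 and likewise 0 elsewhere. Both fall outside the rule by which listed genes were named. Other genes of the same lists went the other way, among them Ldb3 (130 and 7 counts in replicates 1 and 2), Hrc (58 and 0) and Mylk4 (57 and 0).

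**Figure D4:**
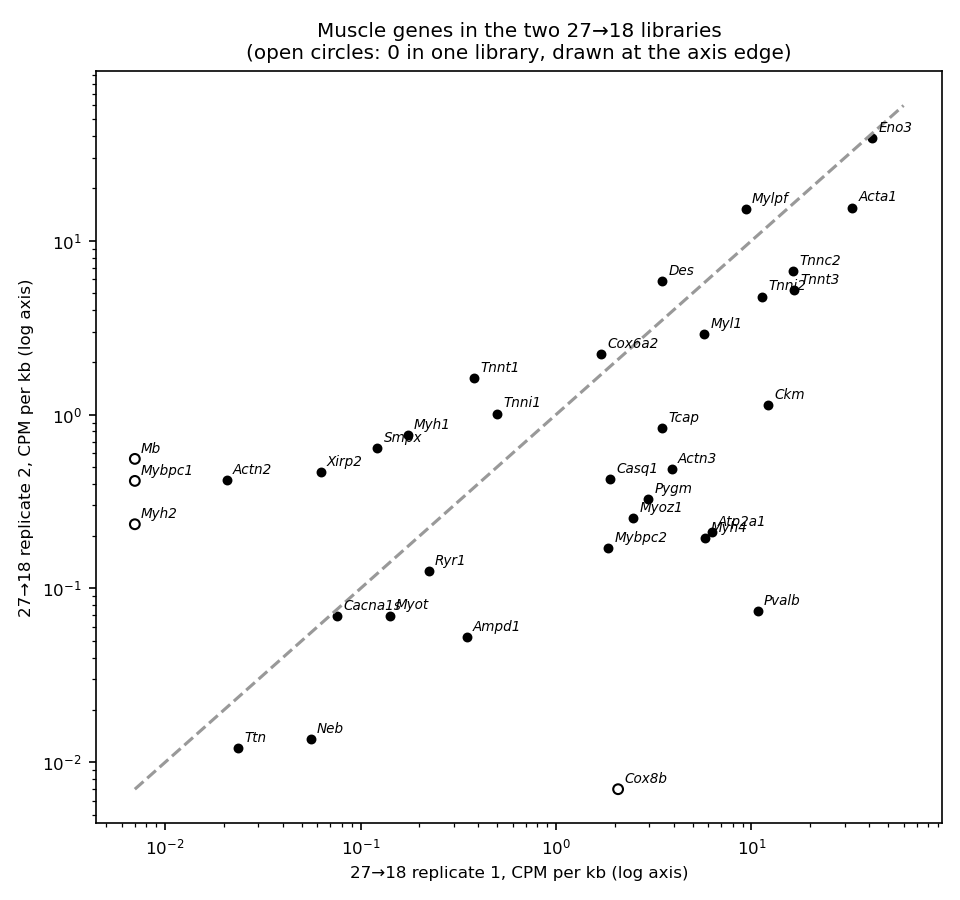
CPM per kilobase of the members with over 20 counts in at least 1 of the 27→18 libraries, replicate 1 on the horizontal and replicate 2 on the vertical log axis, with equality as a dashed line and open circles for 0 in 1 library. Pvalb, Atp2a1 and Myh4 lie far to the right of the line, and Mb, Mybpc1, Myh2, Actn2 and Xirp2 lie above it.

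Other muscle genes were read from lists of their own. Against the mean of the other groups, 12 of 16 tested fast-fiber genes were higher in 27→18 at the unadjusted threshold and 1 of 9 slow-fiber genes (Mybpc1), though most genes of the fast list are also members. Of other sarcomere and Z disc genes 4 of 22 were higher, of other excitation and calcium genes 4 of 20, of other muscle metabolism genes 1 of 17 (Actn3, itself a member), and of atrophy and denervation genes 1 of 7. None of 3 developmental, 5 satellite cell and 5 neuromuscular junction genes tested were. Over all tested genes, 1.07% were higher at this threshold and 0.402% lower. How many listed genes passed the low-count filter only through the 27→18 libraries was not counted. In all of these lists 0 genes were lower, and beyond Tnnt3 and Mylpf 0 passed an adjusted p of 0.05. Trdn, which anchors the calcium store at the release channel, was at 0.611 and 0.308 CPM in 27→18 and no more than 0.0499 CPM elsewhere. Trim72, a membrane repair protein of muscle, was at 0.474 and 0.308 CPM and no more than 0.0579 CPM elsewhere. Klhl41, a sarcomere assembly factor, was at 0.362 and 0.846 CPM and no more than 0.246 CPM elsewhere. These are faint signals, but in each the 27→18 libraries stood above all others. Rapsn and Chrna1, of the neuromuscular junction, were present in all tumors and did not separate 27→18, at 6.48 and 8.21 CPM and at 15.3 and 19.5 CPM, against up to 7.30 and 26.0 CPM elsewhere.

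Each treatment was then set against the pMCS control, which all 5 comparisons share. In 27→18, 0 members passed an adjusted p of 0.05 (edgeR; 0.235% of all tested genes did), 14 of 32 were higher at the unadjusted threshold (background 0.7%) and 0 were lower (1.61%). Fewer members were higher when 27→18 replicate 1 or pMCS replicate 2 was left out, in fits that ran the low-count filter anew. At an adjusted p under 0.05, DESeq2 called 5 members among 171 genes and the edgeR exact test 5 among 148, all of these members higher. Of the 24 members that passed the filter without 27→18, 9 were higher (background 0.658%). The largest bound was that of Myh4, with 0 counts in both pMCS libraries: at least 122-fold higher in replicate 1 and at least 4.14-fold in replicate 2. Des was higher at the unadjusted threshold (log2 fold change 2.24, SE 0.55, adjusted p = 0.450 by edgeR). In 27pepL and in 27pepL→18, 0 of 32 members were higher at the unadjusted threshold (backgrounds 0.735% and 0.813%) and 0 were lower (2.54% and 2.16%). In IL-27, 1 was higher, Des (background 3.44%), and 0 were lower (0.784%). In IL-18, 0 were higher (0.828%) and 2 were lower, Ampd1 and Ttn (1.65%). At an adjusted p under 0.05, IL-18 (0%), IL-27 (0%), 27pepL (0.255%) and 27pepL→18 (0.23%) had 0 members by edgeR, the percentages being those of all tested genes, and DESeq2 called 1 member, Cox8b, lower in IL-18, 27pepL and 27pepL→18 (among 43, 223 and 213 genes) and 0 in IL-27 (among 32). Cox8b was detected in pMCS replicate 2 alone of the pMCS libraries. The members' median log2 fold changes were 3.33 in 27→18, -0.47 in IL-18, 0.21 in IL-27, -0.32 in 27pepL and 0.33 in 27pepL→18.

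The 27→18 group was also set against each of the other treatments. At the unadjusted threshold, 18 members were higher than in IL-18 (background 1.02%), 11 than in IL-27 (0.656%), 16 than in 27pepL (1.1%) and 9 than in 27pepL→18 (0.926%). In each of the 4, 0 were lower, against backgrounds of 1.4%, 2.95%, 0.46% and 0.514%. Among the 24 members that passed the filter without 27→18, the counts were 13 (0.958%), 7 (0.623%), 11 (1.02%) and 7 (0.883%). By edgeR 0 passed an adjusted p of 0.05, against 0.22%, 0.245%, 0% and 0% of all tested genes. DESeq2 called 9 members among 156 genes, 6 among 212, 7 among 40 and 3 among 40, all higher. The last of these compares groups that differ in the peptide on interleukin-27. Acta1 (log2 fold change 4.69, SE 1.495), Tnnt3 (4.30, SE 0.94) and Mylpf (3.08, SE 0.58) were among its 9.

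27pepL→18 replicate 2 carried a weaker form of the pattern. It held 2.62 CPM of Acta1, 1.17 of Ckm, 0.716 of Tnnc2, 0.765 of Tnnt3 and 0.146 of Myh4, the last from 12 counts. Mylpf, at 1.34 CPM, was close to the 1.24 CPM of pMCS replicate 2. 27pepL→18 replicate 2 was the highest library outside 27→18 for 9 of the 36 members detected there, as was IL-27 replicate 1. Its partner, replicate 1, had 0.0585 CPM of Acta1 and 0 counts of Tnnc2 and Myh4. The signal was therefore not shared by the libraries of that group.

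Markers of other tissues were measured in the same libraries. The 11 cardiac genes listed summed to 93.0 and 88.6 CPM in 27→18 and to between 44.2 and 153 CPM elsewhere, most of it the transcription factor Gata4 (38.7 to 150.3 CPM over all libraries). Of the defining heart genes, Myh6 had 12 counts or less and Myl7 4 or less in every library, whereas Tnnt2 was between 1.23 and 6.45 CPM. The 11 skin genes summed to 13.9 and 19.2 CPM in 27→18 and to between 11.2 and 21.7 CPM elsewhere, with Krt10 between 4.49 and 13.2 CPM and the basal keratins Krt5 and Krt14 at 4 counts or less. No cardiac, smooth muscle, adipocyte, skin, nerve or tendon gene tested was higher in 27→18 at the unadjusted threshold. Liver genes separated the libraries along another line: the 10 listed summed to between 217 and 1156 CPM in pMCS, IL-18 and IL-27 and to between 1.74 and 11.8 CPM in 27→18, 27pepL and 27pepL→18, and albumin had 8198 to 13738 counts in the first 6 libraries and 0 in the last 6. The comparisons of 27→18 with 27pepL and 27pepL→18 lie on 1 side of that line, and their 16 and 9 members higher are given above.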

How the data were processed

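RNA of pooled tumors was made into stranded poly(A) libraries by the authors and sequenced as read pairs. Per the labels and the study's methods, reads were trimmed with Cutadapt, checked with FastQC 0.11.3, aligned with HISAT2, assembled with StringTie and compared with edgeR. Which build and annotation were used, and how counts were made after StringTie, is not given in the sources used. The authors deposited 1 table of whole-number counts per gene, unnormalized, for 12 libraries (49844915 to 76620862 counts), and 0 columns were left unused. All 55450 IDs matched GENCODE M21 (GRCm38), used for symbols and exon lengths.

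Counts were filtered with edgeR's filterByExpr, scaled by TMM and fitted over all 6 groups with the quasi-likelihood test (edgeR 4.0.16, R 4.3.3), with p-values adjusted over 20417 genes. The test gives no SE. Each SE printed is the absolute log2 fold change divided by the square root of the F statistic. DESeq2 1.42.0, the edgeR exact test, RLE scaling, no filter, only the groups compared, a replicate block and each library left out were alternatives. Where a library was left out or only the groups compared were kept, the low-count filter was run anew and the tested genes could differ. Counts divided by 4 and heavy chain and troponin shares less the level of other tumors were added after the data were seen. Script steps were tested on simulated data. Isoform shares used counts per kilobase of merged exons, in libraries with at least 100 counts of the 6 heavy chains or 20 of a pair. Named genes were the members of highest level per kilobase in each role, the isoforms, the regulators, any member called and up to 3 genes per list. Members and lists were chosen with earlier results of these data known.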

Additional observations from a re-analysis of the deposited data

How the results depend on the processing

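The number of members past an adjusted p of 0.05 depended on the filter and the tool. Without the low-count filter it was, against pMCS, 14 in 27→18 (all higher, among 337 genes), 4 in IL-18 (1 higher and 3 lower, among 291), 1 in IL-27 (higher, among 817), 4 in 27pepL (all lower, among 437) and 4 in 27pepL→18 (2 higher and 2 lower, among 366). In 27→18 it was 16, 14, 14 and 13 against IL-18, IL-27, 27pepL and 27pepL→18 (among 315, 738, 169 and 178 genes, and all higher but 1 against IL-27) and 22, all higher, against the mean of the other 5 groups (among 172). With DESeq2 it was 5, 1, 0, 1 and 1 against pMCS, 9, 6, 7 and 3 against the other treatments, and 8 against the mean, all higher in 27→18, whereas the member in IL-18, 27pepL and 27pepL→18 was Cox8b, lower than in pMCS. With the edgeR exact test it was 5 against pMCS and 6, 4, 3 and 0 against IL-18, IL-27, 27pepL and 27pepL→18, all higher. With counts divided by 4, it was 1 against IL-18. The cause was not tested. When each library was left out in turn, 0 to 2 members passed against the mean of the other groups and 0 to 2 against IL-18 (2 without IL-27 replicate 1, 1 without either 27pepL library), and 0 in the other 8 comparisons.

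The replicate numbers were not treated as pairs in the main fit. Same-numbered libraries deviated together (correlation over 0.1) in 6 of 15 pairs of groups, with correlations between -0.282 and 0.343. The 15 pairs share libraries, so these values cannot exclude an effect shared by same-numbered libraries. With the replicate block, 0 members passed against the mean of the other groups, where 2 did without it, and the other counts stayed at 0.

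Of 747 log2 fold changes under alternatives, 739 kept their direction. Without 27→18 replicate 1, Myoz1 turned to -0.61 against pMCS and -0.58 against the mean of the others. Without 27→18 replicate 2, Myh1 turned to -0.32 and -0.17. With each library left out in turn, Myoz1 ranged from -0.61 to 3.08 and from -0.58 to 3.36, Myh1 from -0.32 to 1.80 and from -0.17 to 1.94, and Eno3 against pMCS from -0.089 to 0.16. Eno3 against pMCS turned to -0.00055 with RLE factors, -0.00053 with DESeq2, -0.089 without pMCS replicate 2 and -0.028 without 27→18 replicate 1. Taking off the level of the other tumors moved Myh4 to 99.5% and Myh1 to 0.215% in replicate 1 and Myh1 to 52.5% in replicate 2. Without division by length, the log2 ratio of Tnni1 to Tnni2 was -3.95 and -1.69 in place of -4.50 and -2.24. With the level of the other tumors taken off, an alternative added after the data were seen, the log2 slow to fast ratios of replicate 2 were -2.35 for troponin T, -4.23 for troponin I and -0.82 for troponin C, in place of -1.67, -2.24 and -0.01.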

Other observations

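Beside the muscle genes, the genes with the smallest p in 27→18 against the mean of the other 5 groups included 2 that belong to no muscle list and were chosen after their values were seen. Myl12b, a regulatory light chain of nonmuscle and smooth muscle myosin, was at 24.6 and 32.03 CPM in 27→18 and no more than 0.607 CPM in the other 10 libraries (log2 fold change 6.79, adjusted p = 0.162 by edgeR). The predicted gene Gm49383 was at 6.66 and 10.5 CPM in 27→18, 1.51 and 1.27 CPM in IL-18, and no more than 0.415 CPM in the other 8 libraries (adjusted p = 0.367 by edgeR). For both, 27→18 replicate 2 was above replicate 1. The same held for 14 members, among them Mylpf, Des and Xirp2. The reverse held for 24 members, among them Myh4, Ckm and Atp2a1. Myl12b has near-identical copies, and its counts may hold reads of them.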
